A study of Homo sapiens with 10 samples.

Results

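The genes described here encode the proteins of the mitochondrial ribosome and carry MRPL or MRPS symbols. They were chosen by symbol alone, as every gene of the table named MRPL or MRPS with a number (and at most the letter A, B or C after it) and an average of 0.5 FPKM or more across the 10 samples. All 76 genes with such a symbol passed this minimum, among 23284 genes in the table and 12788 genes tested. By the role of the protein, 49 belong to the large subunit and 26 to the small subunit, and MRPS36 carries the name but is not part of the ribosome in current structures. Of the 75 ribosomal proteins, 46 are named in the structural nomenclature after a bacterial ribosomal protein and 29 are named as mitochondria-specific, among them MRPS18A and MRPS18B, which are related to a bacterial protein but sit elsewhere in the ribosome.

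The measurements come from K562, an established human chronic myeloid leukemia cell line. Cells were exposed for 48 h to vehicle (DMSO), to CBP30 at 2 or 5 µM, or to I-CBP112 at 2 or 5 µM, with 2 biological replicates for each of the 5 conditions and no other agent or genetic change. Both compounds bind the bromodomains of the acetyltransferases CREBBP and EP300, and the question was which genes respond to that inhibition. Polyadenylated RNA was sequenced, and each gene has 1 value per sample in FPKM, the number of fragments per length of transcript and per number of mapped reads. In bulk RNA, fewer cells of a type and less RNA per cell cannot be told apart.

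The mitochondrial ribosome translates the few proteins encoded by mitochondrial DNA, which are subunits of the respiratory chain and of ATP synthase. Its ribosomal RNAs come from mitochondrial DNA, but every protein of it is encoded in the nucleus, made in the cytosol and imported. Compared with the bacterial ribosome it has less RNA and more protein, and most of the additional proteins have no counterpart in the bacterial ribosome. Promoters of nuclear genes for mitochondrial proteins are known for sites of NRF1, of the ETS family (NRF2, also called GABP) and of YY1.

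Promoter sequence is shown for members that fell and for members that rose, so that the letters can be set beside the values given further on. RefSeq windows (GRCh38.p14) of 300 bases, with 250 bases before and 50 after the start site, were matched for 67 of the 76 members. A single window was taken for each member, whereas the shares set beside them count every window, and a gene can have several. On either strand, CCGGAA (the ETS core) was found in the windows of 38 members, 56.7%, against 28.1% of 13716 windows of tested genes and 17.2% of all 35116 windows. AAGATGGCG (YY1) was found in 13 members, 19.4%, against 3.67% of the windows of tested genes and 1.75% of all. GCATGCGC (the NRF1 core) was found in 6 members, 8.96%, against 4.97% and 3.05%, and CACGTG (the E-box) was found in 6 members, 8.96%, against 9.52% and 7.26%. A match only says that the letters are there. The following stretches are the 120 bases before the start site, with matches to the 4 motifs in capitals. MRPS22 (chr3:139343874-139343993, plus strand), MRPL32 (chr7:42932256-42932375, plus strand), MRPS18B (chr6:30617720-30617839, plus strand) and MRPL36 (chr5:1799838-1799957, minus strand) fell with 5 µM CBP30, and were picked for holding a match. MRPS6 (chr21:34073458-34073577, plus strand) and MRPS14 (chr1:175023426-175023545, minus strand) rose and hold no match in this stretch. The set does not stand for all members, since 18 of the 46 members with a window that were called lower hold a match in this stretch, as do 12 of the 18 that were not called.
MRPS22: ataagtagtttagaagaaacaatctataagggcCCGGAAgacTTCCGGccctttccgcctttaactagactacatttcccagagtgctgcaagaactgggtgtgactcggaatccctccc
MRPL32: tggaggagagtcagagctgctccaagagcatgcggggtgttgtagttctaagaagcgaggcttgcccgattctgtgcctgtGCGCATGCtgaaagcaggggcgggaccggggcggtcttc
MRPS18B: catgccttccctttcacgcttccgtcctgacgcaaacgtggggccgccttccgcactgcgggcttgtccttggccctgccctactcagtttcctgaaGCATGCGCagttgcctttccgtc
MRPL36: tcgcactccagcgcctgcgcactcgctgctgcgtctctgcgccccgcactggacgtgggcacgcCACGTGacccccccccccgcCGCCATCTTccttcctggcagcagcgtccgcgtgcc
MRPS6: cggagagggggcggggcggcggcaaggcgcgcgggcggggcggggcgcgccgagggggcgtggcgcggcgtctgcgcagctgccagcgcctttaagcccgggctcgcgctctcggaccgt
MRPS14: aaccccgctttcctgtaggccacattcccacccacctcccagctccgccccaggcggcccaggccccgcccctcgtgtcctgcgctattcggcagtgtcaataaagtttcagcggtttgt

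The YY1 letters mostly lay just after the start site, on the strand of the gene. They are shown with 6 bases on each side for MRPS30 (chr5:44808954-44808974, plus strand), MRPS24 (chr7:43869484-43869504, minus strand) and MRPL50 (chr9:101398581-101398601, minus strand), which fell with 5 µM CBP30, and for MRPL42 (chr12:93467516-93467536, plus strand), which rose.
MRPS30: cgggcaAAGATGGCGgcggcc
MRPS24: tggcccAAGATGGCGgcctcc
MRPL50: tcatcgAAGATGGCGgcgcga
MRPL42: tgaaacAAGATGGCGggttcg

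In DMSO, the members were expressed at 11.4 to 266 FPKM, with a median of 60.5 and a ratio of 23.4 between the highest and the lowest. FPKM is per length, which puts genes on a shared scale, but a bias with transcript length could shift their order. MRPS21 was the highest at 266 and 267 FPKM in the DMSO samples, followed by MRPL40 at 222 and 223 and MRPL37 at 185 and 186. The lowest were MRPL22 at 10.6 and 12.2 FPKM, MRPL17 at 11.9 and 11.2, and MRPL19 at 15.7 and 16.5. The samples of MRPL22 and MRPL17 overlapped, so that their order is within the spread. The median spread of a member between replicates (SD over mean) was 2.61% with DMSO and 2.19% with 5 µM CBP30, but 16.2% with 2 µM CBP30.

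With 5 µM CBP30, the summed level of the 76 members was 72.7% of that with DMSO. The sums were 5357 and 5336 FPKM in the DMSO samples and 3854 and 3917 FPKM in the treated samples, and their share of all FPKM went from 0.871% and 0.873% to 0.704% and 0.710%. Every fold change given here is a difference between group means of log2(FPKM + 1) from a limma fit of all samples, and a gene was called at a Benjamini-Hochberg adjusted p under 0.05 over all genes tested. By this test 52 of the 76 members were lower and 3 were higher with 5 µM CBP30, while 25.4% of all tested genes were lower and 21.2% were higher. The median log2 fold change of the members was −0.41 (quartiles −0.63 and −0.26), against −0.01 over all genes tested. Both treated samples were below both DMSO samples for 67 members and above for 3, whereas 42.6% of all tested genes had both samples below. Fewer members were lower without replicate 1 of 5 µM CBP30 or without replicate 2 of DMSO, and leaving out a single sample could also give more. For such fits the share of all tested genes called is not given here.

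**Figure D1:**
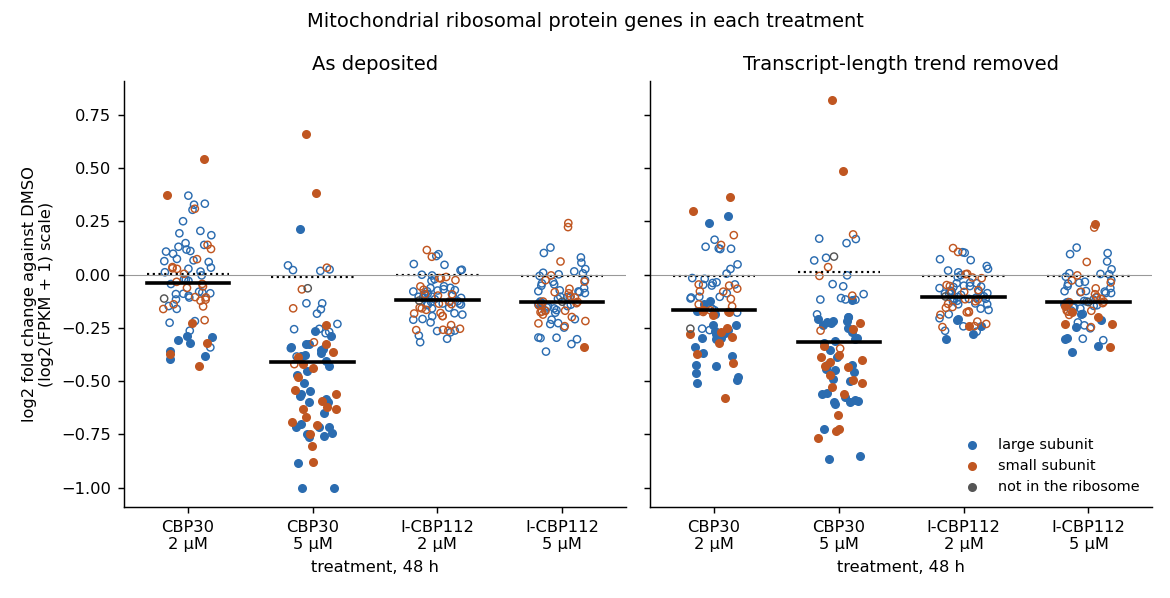
Log2 fold change against DMSO (y axis, log2(FPKM + 1) scale) of the 76 members for each treatment at 48 h (x axis), from the values as deposited (left) and after removal of the transcript-length trend (right). Each point is 1 gene coloured by subunit, filled points passed the test, the solid line is the median of the members and the dotted line the median of all genes tested; with 5 µM CBP30 the member medians are −0.41 and −0.32, while those of both I-CBP112 concentrations lie between −0.13 and −0.10.

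Members with the largest falls came from both subunits. MRPL2 (hg19 chr6:43021767-43027176, minus strand), the homolog of a protein at the core of the bacterial large subunit, measured 81.9 and 81.5 FPKM with DMSO, 74.2 and 55.6 with 2 µM CBP30, and 40.4 and 40.2 with 5 µM CBP30. In the I-CBP112 samples it stood at 64.3 and 71.7 FPKM at 2 µM and at 62.8 and 63.9 FPKM at 5 µM. All treated samples were below DMSO, and those with 5 µM CBP30 were below every other sample. It fell by 1.00 on the log2 scale with 5 µM CBP30 (SE 0.12, adjusted p = 0.00063).

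MRPS30 (hg19 chr5:44809049-44820530, plus strand) has a small-subunit name, but its protein sits in the large subunit. It measured 69.3 and 68.0 FPKM with DMSO, 57.6 and 46.7 with 2 µM CBP30, and 33.4 and 34.3 with 5 µM CBP30. With I-CBP112 it stood at 55.4 and 54.4 FPKM at 2 µM and at 54.5 and 56.9 FPKM at 5 µM. The order of MRPL2 recurred, with DMSO highest and 5 µM CBP30 lowest. It fell by 1.00 (SE 0.09, adjusted p = 0.000165) with 5 µM CBP30 and by 0.40 (adjusted p = 0.0159) with 2 µM CBP30.

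MRPS22, a mitochondria-specific protein of the small subunit, measured 77.7 and 76.4 FPKM with DMSO, 61.9 and 52.5 with 2 µM CBP30, and 41.1 and 41.7 with 5 µM CBP30. The I-CBP112 samples stood at 62.5 and 65.9 FPKM at 2 µM and at 67.7 and 63.5 FPKM at 5 µM. No sample with 5 µM CBP30 overlapped with any other group. It fell by 0.88 (SE 0.08, adjusted p = 0.000173) with 5 µM CBP30 and by 0.43 (adjusted p = 0.00784) with 2 µM.

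MRPL12 belongs to the stalk of the large subunit, which recruits translation factors, and its protein is also known to bind the mitochondrial RNA polymerase. It measured 107 and 102 FPKM with DMSO, 124 and 78.1 with 2 µM CBP30, and 55.1 and 57.6 with 5 µM CBP30. In the I-CBP112 samples it stood at 88.0 and 96.7 FPKM at 2 µM and at 88.0 and 81.5 FPKM at 5 µM. The samples with 2 µM CBP30 lay on either side of DMSO, and those with 5 µM lay below all others. It fell by 0.88 (SE 0.19, adjusted p = 0.00704) with 5 µM CBP30. The other stalk genes also fell, MRPL10 by 0.57 (adjusted p = 0.000364) and MRPL11 at its base by 0.41 (adjusted p = 0.0393). The call of MRPL11 was lost in 10 of the alternative fits, at an adjusted p of up to 0.161.

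MRPS24, a small-subunit protein with a bacterial homolog, measured 135 and 137 FPKM with DMSO, 164 and 117 with 2 µM CBP30, and 78.6 and 76.0 with 5 µM CBP30. With I-CBP112 it stood at 113 and 130 FPKM at 2 µM and at 122 and 112 FPKM at 5 µM. Its samples with 2 µM CBP30 again lay on either side of DMSO. It fell by 0.80 (SE 0.15, adjusted p = 0.00406) with 5 µM CBP30. The levels by sample of these genes, and of the members that rose, are plotted together.

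**Figure D2:**
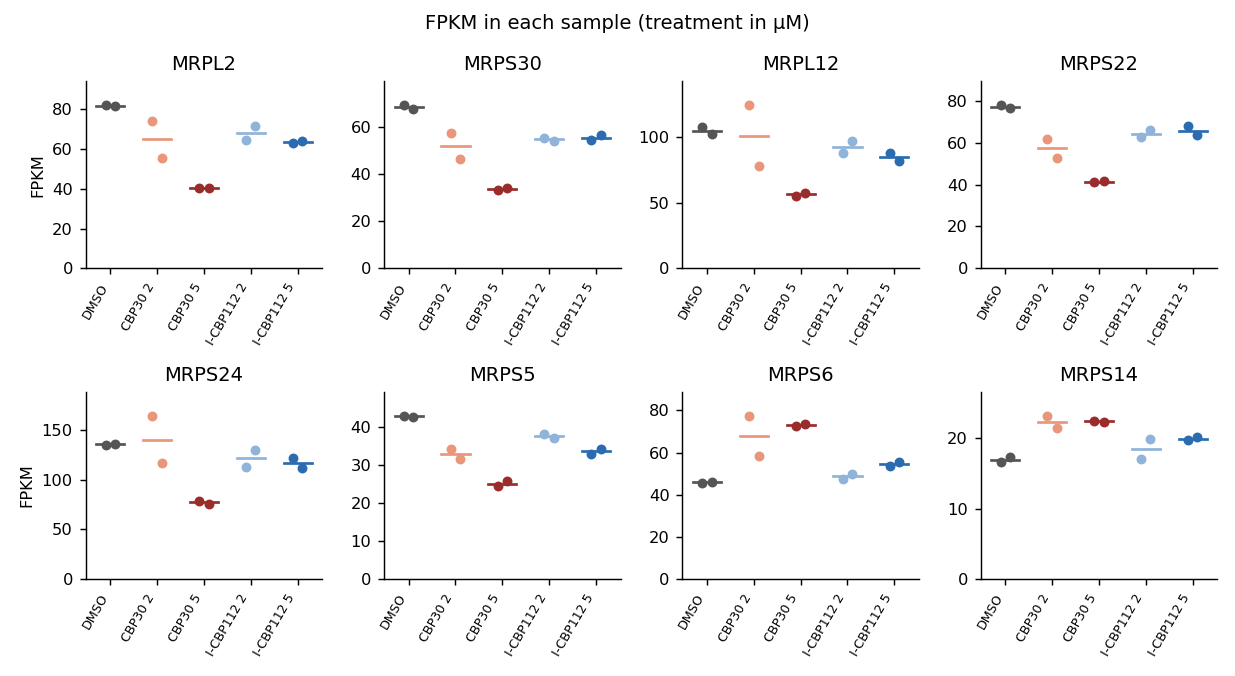
FPKM (y axis, from 0) in each of the 10 samples for 8 members, 5 with the largest falls, MRPS5, and 2 that rose; each point is 1 sample, the line is the group mean and the x axis gives the treatment with its concentration in µM. In MRPL2, MRPS30, MRPL12, MRPS22, MRPS24 and MRPS5 both samples with 5 µM CBP30 lie below all other samples, and the 2 samples with 2 µM CBP30 lie far apart in MRPL12 and MRPS24.

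Only 3 members were higher with 5 µM CBP30. MRPS6 (hg19 chr21:35445524-35515334, plus strand), a small-subunit protein with a bacterial homolog, measured 45.8 and 46.0 FPKM with DMSO, 77.3 and 58.5 with 2 µM CBP30, and 72.6 and 73.4 with 5 µM CBP30. The I-CBP112 samples stood at 47.6 and 49.8 FPKM at 2 µM and at 53.4 and 55.5 FPKM at 5 µM. Every treated sample was above both DMSO samples. It rose by 0.66 (SE 0.11, adjusted p = 0.00295) with 5 µM CBP30 and by 0.54 (adjusted p = 0.0122) with 2 µM CBP30. The gene spans SLC5A3, a transporter of myo-inositol on the same strand, whose reads could be split between both. SLC5A3 measured 3.87 and 3.60 FPKM with DMSO and 8.41 and 8.22 with 5 µM CBP30. Other members overlap a gene on the opposite strand, among them MRPL2 (KLC4), MRPS22 (COPB2) and MRPS14 (CACYBP). The strand setting of the counting is not given, so reads could be shared there too.

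MRPS14, another small-subunit protein with a bacterial homolog, measured 16.6 and 17.3 FPKM with DMSO, 23.1 and 21.5 with 2 µM CBP30, and 22.4 and 22.4 with 5 µM CBP30. In the I-CBP112 samples it stood at 17.06 and 19.96 FPKM at 2 µM and at 19.8 and 20.2 FPKM at 5 µM. The samples of both CBP30 concentrations lay above all others and overlapped with each other. It rose by 0.38 with 5 µM CBP30 (SE 0.08, adjusted p = 0.00572) and by 0.38 with 2 µM CBP30 (adjusted p = 0.011). MRPL42 measured 34.4 and 34.4 FPKM with DMSO and 39.2 and 41.0 with 5 µM CBP30, a rise of 0.22 (SE 0.06, adjusted p = 0.0269), which missed the threshold once the length trend was removed (0.08, adjusted p = 0.478) and without any 1 of these 4 samples (adjusted p up to 0.14). The length correction took 15557 bases for MRPL42, the longest transcript among the members. The annotation behind the FPKM values is not given, so this length may not be the one used for them. A pseudogene of MRPL42, MRPL42P5, is listed at 0.344 to 1.56 FPKM, so few reads were assigned to the pseudogene.

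The falls with 5 µM CBP30 were spread over the ribosome, where 25.4% of all tested genes were lower and 21.2% higher. In the large subunit 33 of 49 members were lower and 1 was higher, with a median of −0.38, and in the small subunit 19 of 26 were lower and 2 were higher, with a median of −0.46. Of the proteins named after a bacterial one, 32 of 46 were lower and 2 higher (median −0.44), and of those named as mitochondria-specific 20 of 29 were lower and 1 higher (median −0.38). The difference between these classes was not tested.

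Of the 13 members chosen for their role, MRPS30 fell most with 5 µM CBP30, by 1.00, and MRPS36 differed least, by −0.06. The related proteins MRPS18A, MRPS18B and MRPS18C descend from 1 bacterial protein and take separate places in the ribosome. MRPS18B measured 109 and 109 FPKM with DMSO and 65.7 and 67.4 with 5 µM CBP30 and fell by 0.71 (adjusted p = 0.00122). MRPS18C fell by 0.36 (adjusted p = 0.0206), a call lost without a filter and when any DMSO or 5 µM CBP30 sample was left out (adjusted p up to 0.107). MRPS18A, in the large subunit, differed by −0.27 and did not pass the test (adjusted p = 0.0994). With the length trend removed it differed by −0.12 and was called lower (adjusted p = 0.047).

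MRPL32, whose protein is processed by the mitochondrial AAA protease before assembly, measured 62.3 and 57.8 FPKM with DMSO and 35.8 and 34.4 with 5 µM CBP30. It fell by 0.76 (adjusted p = 0.000325). MRPS12, of the decoding site, fell by 0.63 (adjusted p = 0.0379), with a call lost in 9 of the alternative fits at an adjusted p of up to 0.156. MRPS27, a pentatricopeptide repeat protein, fell by 0.44 (adjusted p = 0.000937), and MRPL44, related to ribonuclease III, fell by 0.34 (adjusted p = 0.0236), a call lost in the same alternatives (adjusted p up to 0.113).

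MRPL41, also described as a proapoptotic protein, did not pass the test (−0.23, adjusted p = 0.367). MRPS36, now known as a part of the 2-oxoglutarate dehydrogenase complex, measured 32.0 and 33.1 FPKM with DMSO and 29.6 and 32.7 with 5 µM CBP30, and its groups overlapped (−0.06, adjusted p = 0.46). The most abundant members fell, MRPS21 by 0.59 (adjusted p = 0.00229), MRPL40 by 0.47 (adjusted p = 0.00289) and MRPL37 by 0.60 (adjusted p = 0.00267). The scarcest did not pass the test, with −0.13 for MRPL19 (adjusted p = 0.269), −0.13 for MRPL17 (adjusted p = 0.322) and 0.04 for MRPL22 (adjusted p = 0.691). With the length trend removed MRPL19 was called lower (−0.25, adjusted p = 0.00102), while MRPL17 and MRPL22 were not called. With 2 µM CBP30 MRPL19 was called lower as deposited (−0.31, adjusted p = 0.0413).

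Ordered by the DMSO level, the 25 highest members had a median log2 fold change of −0.59 with 5 µM CBP30, the 26 in the middle −0.40 and the 25 lowest −0.35. In these groups 18, 18 and 16 members were lower, against 25.4% of all tested genes, and all 3 members that rose were among the lowest. The difference between these medians was not tested.

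**Figure D3:**
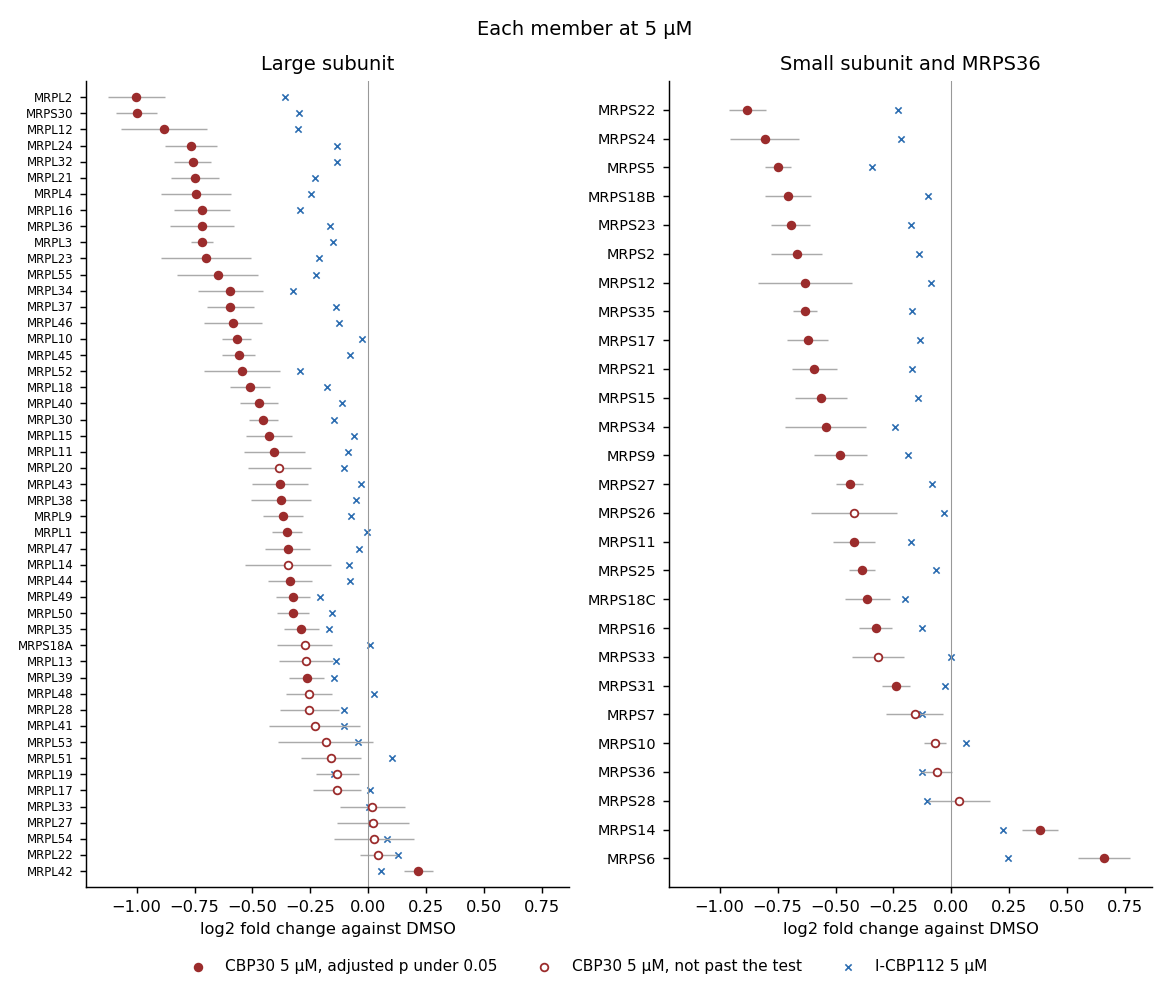
Log2 fold change against DMSO (x axis, log2(FPKM + 1) scale) of each member, as circles with SE for 5 µM CBP30 (filled where the adjusted p is under 0.05) and as crosses for 5 µM I-CBP112, for the large subunit (left) and for the small subunit with MRPS36 (right). With 5 µM CBP30 MRPL2 and MRPS30 are lowest and MRPS6 is highest at 0.66, while the crosses of 5 µM I-CBP112 lie between −0.36 and 0.24.

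The 2 samples with 2 µM CBP30 differed from each other for these genes. Relative to the DMSO mean, the median member stood at 0.10 on the log2 scale in replicate 1 and at −0.19 in replicate 2, and 23 and 68 of the 76 members were below DMSO. Their summed levels were 5952 and 4626 FPKM. Replicate 1 showed a trend with transcript length over 12173 genes (Spearman rho = −0.468, where the 2 µM replicate 2 had −0.0446 and the 5 µM samples had 0.193 and 0.194). The DMSO samples, whose differences from their own mean are equal and opposite, had −0.162 and 0.162. Members have short transcripts, with a median of 1242 bases against 3068 over the tested genes, and 85.5% of them are shorter than that median. Across the 76 members, rho with length was −0.518 in replicate 1 and 0.036 in replicate 2, as the plot of differences against length shows, and −0.471 and 0.471 in the DMSO samples. The part of this trend in the counts that follow was not tested apart from the correction given with them.

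**Figure D4:**
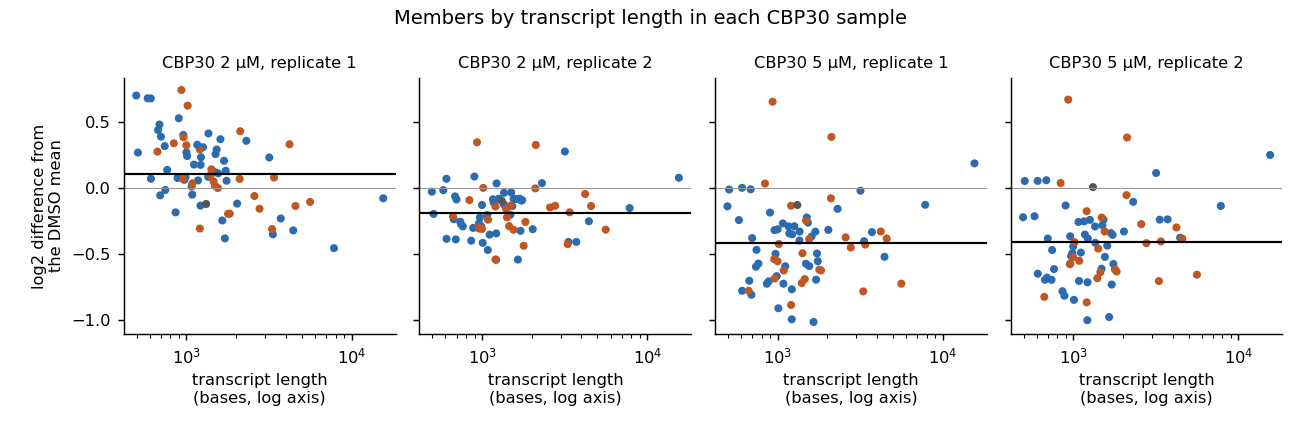
Difference from the DMSO mean (y axis, log2(FPKM + 1) scale) against transcript length (x axis, bases, log axis) for the 76 members in each CBP30 sample; blue is the large subunit, orange the small subunit, grey MRPS36, and the black line is the median. In replicate 1 with 2 µM the short transcripts lie highest (median 0.10), while the medians of the other samples are −0.19, −0.42 and −0.41.

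The counts with 2 µM CBP30 changed with the samples used. Over both replicates, 11 members were lower and 2 were higher, against 16.3% and 15.9% of all tested genes, with a median of −0.04, and 21 members had both samples below both DMSO samples, where 30.5% of all tested genes did. The lower members were led by MRPS22, MRPS30, MRPL50 (−0.38, adjusted p = 0.00721), MRPS5 (−0.37, adjusted p = 0.00354) and MRPL3 (−0.36, adjusted p = 0.00194), and the higher members were MRPS6 and MRPS14. Against the DMSO mean, the median member stood at −0.19 without replicate 1 of 2 µM CBP30 and at 0.10 without replicate 2, and the calls changed. Leaving out either DMSO sample gave fewer lower members. The share of all tested genes called in such fits is not given here. The calls of MRPS30 and MRPS6 at 2 µM were lost without either DMSO sample, those of MRPS22 and MRPS14 without replicate 1 and that of MRPL50 without replicate 2.

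After the trend with length was removed from every sample, 33 members were lower with 2 µM CBP30 and 4 were higher (MRPS6, MRPS14, MRPL42 and MRPL22), where 20.6% and 20.4% of all tested genes were. The median became −0.17, and the replicates stood at −0.12 and −0.20. With 5 µM CBP30 the same correction left 52 lower and 2 higher, with a median of −0.32, against 28.0% and 27.2% of all tested genes, and 49 members were lower both with and without it. Lower with both concentrations were 10 members as deposited and 31 after the correction. Both comparisons use the same DMSO samples, and the share of all tested genes in these overlaps was not counted.

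The concentrations were also compared directly. Between 5 and 2 µM CBP30, 53 members were lower at 5 µM and 1 (MRPL42) was higher, where 21.3% and 17.6% of all tested genes were, with a median of −0.43. The largest differences were −0.83 for MRPS24 (adjusted p = 0.00833), −0.80 for MRPL23 (adjusted p = 0.02) and −0.79 for MRPL12 (adjusted p = 0.0181), all of them genes with 2 µM samples far apart. With the length trend removed, 34 members were lower and 5 higher, where 19.0% and 18.3% of all tested genes were, the median difference was −0.16, and MRPL42 turned to −0.19 (adjusted p = 0.123). Without either replicate of 5 µM CBP30 fewer members were lower, and the calls of MRPS24, MRPL23, MRPL12 and MRPL42 were lost. That of MRPL42 was kept only when replicate 2 of 2 µM CBP30 was the sample left out. Leaving out a single sample could also give more lower members. For such fits the share of all tested genes called is not given here.

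I-CBP112 gave smaller differences. With 5 µM I-CBP112 the summed level was 91.7% of that with DMSO, and the median log2 fold change of the members was −0.13. MRPS5, a small-subunit protein with a bacterial homolog, was the 1 member called lower, and none was called higher in the limma fit, where 3.28% and 3.84% of all tested genes were. At an unadjusted p under 0.05 there were 10 of the 76 members, a smaller share than the 22.0% of all tested genes. MRPS5 measured 42.9 and 42.8 FPKM with DMSO, 34.3 and 31.6 with 2 µM CBP30, and 24.4 and 25.8 with 5 µM CBP30. With I-CBP112 it stood at 38.3 and 37.2 FPKM at 2 µM and at 32.9 and 34.4 FPKM at 5 µM. DMSO was highest and 5 µM CBP30 lowest, with the other groups between them. It fell by 0.34 (SE 0.06, adjusted p = 0.0161) with 5 µM I-CBP112 and by 0.75 (adjusted p = 7.89e-05) with 5 µM CBP30. The call of MRPS5 with 5 µM I-CBP112 was lost without any 1 of the DMSO or 5 µM I-CBP112 samples.

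With 2 µM I-CBP112 the summed level was 91.8% of that with DMSO, and limma called 0 members lower and 0 higher, where 0.735% and 0.868% of all tested genes were. At an unadjusted p under 0.05 there were 9 of the 76 members, where 13.8% of all tested genes were, and the median was −0.12. Both samples were below both DMSO samples for 52 members with 5 µM I-CBP112, where 33.7% of all tested genes were, and for 49 members with 2 µM, where 28.3% were. Without the length trend, 13 members were lower and 1 (MRPS6) higher with 5 µM, against 7.68% and 7.66% of all tested genes. With 2 µM, 6 members were lower and 0 higher in the same limma fit, against 2.22% and 2.48% of all tested genes. MRPL2, MRPS22, MRPS30, MRPL16 and MRPL49 were among the lower members at both concentrations. Leaving out either 2 µM CBP30 sample gave more lower members at both I-CBP112 concentrations. Such a fit takes that condition out of the estimate of the spread, and the part of this in the counts was not tested. In these fits the share of all tested genes called is not given.

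The compounds were compared at matched concentration and time. At 5 µM, 33 members were lower with CBP30 than with I-CBP112 and 1 (MRPS6) was higher. Of all tested genes, 17.9% were lower and 13.6% were higher. The median difference of the members was −0.31. All 33 were also lower than DMSO. These comparisons share the same 5 µM CBP30 samples, and the share of all tested genes in this overlap was not counted. The largest differences were −0.70 for MRPS30 (adjusted p = 0.00171), −0.65 for MRPS22 (adjusted p = 0.00145) and −0.64 for MRPL2 (adjusted p = 0.00833), and MRPS6 differed by 0.42 (adjusted p = 0.0307). With the length trend removed, 36 members were lower and 3 higher, where 20.7% and 19.6% of all tested genes were, with a median of −0.18. Fewer members were lower without 1 of the 5 µM samples of either compound, and more were lower without either 2 µM CBP30 sample. In such fits the share of all tested genes called is not given. The call of MRPS6 was lost without any 1 of the samples other than those with 2 µM CBP30, and that of MRPL2 without either 5 µM CBP30 sample or replicate 2 of 5 µM I-CBP112.

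At 2 µM, 1 member (MRPL3, −0.25, adjusted p = 0.0166) was lower with CBP30 than with I-CBP112 and 1 (MRPS6, 0.46, adjusted p = 0.0393) was higher, where 8.45% and 7.13% of all tested genes were. The median difference was 0.08 as deposited and −0.06 with the length trend removed, where 16 members were lower and 2 higher against 13.0% and 11.9% of all tested genes. More members were lower without replicate 1 of 2 µM CBP30, and more were higher without replicate 2, where the share of all tested genes called is not given.

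The other parts of the mitochondrial translation system were lower in part with 5 µM CBP30, where 25.4% of all tested genes were lower and 21.2% higher. Of 7 ribosomal proteins with other symbols, 3 were lower and 0 were higher in the limma fit, led by ICT1, a peptide release factor built into the large subunit (−0.72, adjusted p = 0.000474), and DAP3, a GTP-binding protein of the small subunit (−0.68, adjusted p = 0.000338), and 5 had an unadjusted p under 0.05, where 54.0% of all tested genes did. Of 20 assembly factors, 13 were lower and 0 higher, with 14 at an unadjusted p under 0.05. RPUSD4, a pseudouridine synthase of the large ribosomal RNA, went from a mean of 35.9 to 16.9 FPKM and fell by 1.04 (adjusted p = 5.2e-05). MRM1, which methylates that RNA, went from 10.3 to 5.08 FPKM and fell by 0.90 (adjusted p = 0.000432).

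Of 15 translation factors, 9 were lower and 1 was higher. The initiation factor MTIF2 fell by 0.62 (adjusted p = 7.89e-05) and the recycling factor MRRF by 0.61 (adjusted p = 8.56e-05), whereas MTFMT, the formyltransferase of the initiator tRNA, rose by 0.29 (adjusted p = 0.00499). Of 10 factors of mitochondrial DNA replication and transcription, 6 were lower and 0 higher, and the same 6 genes had an unadjusted p under 0.05. C10orf2, the helicase Twinkle, fell by 1.07 (adjusted p = 1.46e-05) from 14.7 to 6.47 FPKM, and the transcription factor TFB2M fell by 0.91 (adjusted p = 3.51e-05). The medians of these lists, in this order, were −0.44, −0.30, −0.35 and −0.31.

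Genes of the cytosolic ribosome and of the respiratory chain were set beside the members. Among 78 genes of the cytosolic ribosome, 47 were lower and 1 was higher with 5 µM CBP30 (median −0.40), against 25.4% and 21.2% of all tested genes. Without the length trend 59 of them were lower, where 28.0% of all tested genes were, with a median of −0.29. With 2 µM CBP30, 0 of the cytosolic genes were lower and 2 were higher (median 0.19), against 16.3% and 15.9% of all tested genes. Without the length trend 7 were lower and 5 higher, against 20.6% and 20.4% of all tested genes. The members had 33 and 4. With 5 µM I-CBP112 their median was −0.00, against −0.13 for the members. Of 82 nuclear genes for subunits of the respiratory chain and ATP synthase, 13 were lower and 3 higher with 5 µM CBP30, with a median of −0.12, so that both shares were below those of all tested genes. Without the length trend 18 were lower and 17 higher, against 28.0% and 27.2% of all tested genes. The difference between these sets and the members was not tested.

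Some members start close to another gene. Within 1000 bases, 25 members have a protein-coding neighbour that starts in the opposite direction, and in 24 of these pairs both genes were tested. In 18 pairs the member was lower with 5 µM CBP30. The neighbour was lower in 9 pairs and higher in 3, and both were lower in 7. Of all tested genes, 25.4% were lower and 21.2% were higher. MRPL46 and MRPS11 are neighbours of each other and enter both ways. The medians were −0.43 for the members and −0.19 for the neighbours. MRPL43 starts 46 bases from C10orf2, which fell more than it did (−1.07 against −0.38). MRPS18B fell by 0.71, while PPP1R10, a regulator of protein phosphatase that starts 597 bases away, rose by 0.53 (adjusted p = 0.00177). KLC4, a kinesin light chain that starts 197 bases from MRPL2, differed by −0.14 (adjusted p = 0.169).

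Members with and without the promoter letters shown above were set side by side for 5 µM CBP30, without a test. The median was −0.37 for members with the ETS core and −0.48 for those without, and −0.54 with the YY1 letters against −0.40 without. For NRF1 it was −0.45 against −0.41 and for the E-box −0.46 against −0.41, with 6 members each. None of the 3 members that rose holds the ETS core, and 1 of them, MRPL42, holds the YY1 letters.

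The samples carried erythroid markers known for K562. With DMSO, HBE1 was at 158 FPKM, TFRC at 158 and KLF1 at 65.3. Among markers of other cell types, CDH5 is listed at 0 in all samples and CD3E, ALB and COL1A1 had means of 0.313 to 1.102 FPKM with DMSO, but EPCAM, an epithelial marker, was at 59.2 FPKM. At 5 µM CBP30, HBE1, HBZ, KLF1, EPOR and TFRC were lower and TAL1 was higher. KLF1 fell by 2.81 (adjusted p = 1.44e-05). CD3E (1.102 to 3.23 FPKM) and COL1A1 (0.481 to 1.92 FPKM) were higher and EPCAM fell by 0.85. Their part in the result was not tested. The depth of the libraries is unknown from FPKM, and the relative depth estimated from 348 genes with values of about 1 read was 0.893 to 1.08 times the mean.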

How the data were processed

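K562 cells in 5 conditions with 2 biological replicates each (10 samples) were analysed. The authors made stranded libraries of polyadenylated RNA, read them as single reads and deposited FPKM values, 1 column per sample, processed with Nextpresso on hg19. The submitters' processing notes name TopHat2 2.0.10, Bowtie 1.0.0, SAMtools 0.1.19, Cufflinks 2.2.1, Cuffnorm and FastQC. The annotation and the strand setting of the counting are not given in the sources used here. FPKM scales with the rest of the library, holds no read counts and may be biased by transcript length, so depth is unknown, and the precision rests on 2 samples per condition.

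Values were taken as log2(FPKM + 1), which understates changes of low genes. Of 23284 genes, the 12788 averaging 0.5 FPKM or more were kept, and limma 3.58.1 in R 4.3.3 (eBayes with trend) was fitted to all 5 groups, with 5 residual and 2.15 prior degrees of freedom. Adjusted p-values are Benjamini-Hochberg values over all tested genes. Transcript lengths and hg19 positions came from GENCODE transcripts of the same build, matched by symbol for 92.3% of the genes. The length trend was removed from each sample by loess (span 0.3) on 12173 genes. The fit was tested on simulated data. Python 3.11.15 and pandas 2.3.3 were used for the tables.

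Named members were the 5 largest falls and rises called per treatment (reaching 5 FPKM in 1 of the groups, and with treated samples that do not overlap DMSO), the 3 highest and the 3 lowest with DMSO, 13 chosen for their role, the 3 largest called differences in each direction between CBP30 concentrations and between compounds at 5 µM, and those called against the direction of most. In the other lists these were the 2 largest called falls and rises. MRPL36 and the neighbours KLC4, PPP1R10 and SLC5A3 were named after their values were seen, as were other genes outside this rule. Members and lists were chosen with earlier results of these data known. The alternatives were another pseudocount (0.1), no filter, a filter at 5 FPKM, median centring, quantile normalization, no trend in eBayes, the replicate number as a block, a fit restricted to the groups compared, removal of length and GC trends, and leaving out each sample. One more, removal of the length trend without replicate 1 of 2 µM CBP30, was added after seeing the data. Some marker genes of the cell type lists are not reported here.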

Additional observations from a re-analysis of the deposited data

How the results depend on the processing

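Counts of members called with 5 µM CBP30 against DMSO (52 lower, 3 higher) stayed within 1.5 times under every alternative except leaving out samples, which gave 32 to 65 lower and 2 to 3 higher; the lowest counts came without replicate 1 of 5 µM CBP30 (32) and without replicate 2 of DMSO (34). Left-out samples gave 3 to 32 lower and 0 to 29 higher with 2 µM CBP30 (4 without replicate 1 and 3 without replicate 2 of DMSO), 0 to 12 lower and 0 higher with 2 µM I-CBP112, 0 to 18 lower and 0 to 1 higher with 5 µM I-CBP112, 8 to 67 lower and 0 to 2 higher for 5 against 2 µM CBP30, 15 to 56 lower and 0 to 2 higher for the compounds at 5 µM, and 0 to 10 lower and 0 to 41 higher at 2 µM. A condition left with a lone sample was assumed to vary like the others. The share of all tested genes called in these fits is not given here, so the counts show only that the calls depend on single samples.

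With the length trend removed there were 33 lower and 4 higher with 2 µM CBP30, 6 lower with 2 µM I-CBP112, 13 lower and 1 higher with 5 µM I-CBP112, 34 lower and 5 higher for 5 against 2 µM CBP30, 3 higher for the compounds at 5 µM, and 16 lower and 2 higher at 2 µM. With GC content removed as well these were 38 lower, 9 lower, 20 lower and 2 higher, 2 higher, 2 higher, and 15 lower and 3 higher. With the length trend removed and without replicate 1 of 2 µM CBP30 they were 43 lower, 13 lower, 28 lower and 2 higher, 28 lower and 4 higher, 7 higher, and 18 lower and 2 higher. Quantile normalization gave 18 lower and 4 higher with 2 µM CBP30, 5 lower with 5 µM I-CBP112, 2 higher for 5 against 2 µM CBP30, and 4 lower and 2 higher for the compounds at 2 µM. Fits of only the groups compared gave 0 lower and 0 higher with 2 µM CBP30, 12 lower and 2 higher with 5 µM I-CBP112, 0 and 0 for 5 against 2 µM CBP30, 56 lower and 4 higher for the compounds at 5 µM, and 0 and 0 at 2 µM. Without a filter, 23 members were lower and 0 higher for 5 against 2 µM CBP30, and 0 were higher for the compounds at 5 µM and at 2 µM. Fits of only the groups compared hold fewer samples, and the fit without a filter tests more genes. The cause of the changed counts was not tested. Shares of all tested genes were given above for the fits with only the length trend removed, but are not given for the others. Their counts show only that the calls depend on the processing.

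Replicate numbers did not pair the samples, since the correlations of deviations between groups were −0.0681 to 0.0939 over 10 pairs of groups. The replicate block changed 1 count by over 1.5 times, to 0 higher for the compounds at 2 µM. For the fits with a replicate block, the share of all tested genes called is not given here. With the length trend removed, the replicate block gave 33 lower with 2 µM CBP30, 4 lower with 2 µM I-CBP112, 9 lower and 2 higher with 5 µM I-CBP112, 33 lower and 5 higher for 5 against 2 µM CBP30, 3 higher for the compounds at 5 µM, and 12 lower and 3 higher at 2 µM.

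Among 1100 values of 50 single-gene results, 984 kept their direction and side of the threshold, 89 lost and 15 gained the call, and 12 changed sign, all of them uncalled after the change. MRPS36 with 5 µM CBP30 went to 0.0243 under quantile normalization, to 0.0849 with the length trend removed (also with the replicate block and without replicate 1 of 2 µM CBP30) and ranged from −0.1318 to 0.0037 with samples left out, the highest without replicate 1 of 5 µM CBP30. MRPL22 ranged from −0.0529 (without replicate 1 of DMSO) to 0.1399, and was −0.0236 without replicate 2 of 5 µM CBP30, and MRPL41 to 0.0015 with length and GC trends removed. MRPL42 for 5 against 2 µM CBP30 went to −0.19 with the length trend removed, with or without the replicate block, to −0.23 with GC content removed too, and to −0.0653 without replicate 1 of 2 µM CBP30 as well.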
